A study of Mus musculus with 13 samples.

Results

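Reactive astrocyte genes are transcripts that rise when astrocytes, supportive glia of the brain, optic nerve and inner retina, respond to injury or inflammation. The set described here holds 10 of them, chosen by name: 5 pan-reactive genes (Gfap, Lcn2, Serpina3n, Hspb1 and Steap4), 1 gene of the A1 class (Gbp2) and 4 of the A2 class (Cd14, Tgm1, Clcf1 and Ptgs2). Of these 10 genes, 7 were among the 1593 genes listed in at least 1 of the authors' deposited tables. Up to 15169 genes were tested per table. RNA was sequenced from 13 samples of primary astrocyte cultures prepared from the retinas and optic nerves of C57BL/6 mice (wild type, post natal day 1-3). Of these, 3 samples each received HLM006474, SB431542 or an inhibitor of the RUNX1 transcription factor with its partner CBFB (the RUNX1 inhibitor). The RUNX1 inhibitor is the compound whose code in the sample titles begins with Ro5. Vehicle was given to 4 samples, and all treatments lasted 24 h. Every group, vehicle included, was grown in DMEM/F12 medium with fetal bovine serum. HLM006474 inhibits E2F transcription factors, and SB431542 inhibits the type I receptor kinases of the TGF-beta and activin pathways. Doses and the number of animals pooled per culture are not given in the labels.

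In mouse astrocytes, pan-reactive genes rise after several kinds of insult, A1 genes after inflammatory stimulation by microglial cytokines and A2 genes after ischemia. The intermediate filament Gfap, the iron-binding lipocalin Lcn2 and the protease inhibitor Serpina3n are the most widely used pan-reactive markers. Upstream, cytokines that signal through the gp130 receptor and STAT3, and signals through NF-kB, are known to induce many of these genes. Serum in the medium is itself known to push cultured astrocytes towards a reactive state.

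Each value below comes from the authors' deposited tables of 1 compound against vehicle, which give the log2 fold change, its standard error (SE) and an adjusted p from DESeq2. A gene is listed where its adjusted p was under 0.05 and its absolute log2 fold change was at least 0.58, a change of about 1.5-fold. The HLM006474 table listed 856 of 15169 genes tested (5.64%), 216 higher and 640 lower. For the RUNX1 inhibitor the table listed 397 of 13561 (2.93%), 82 higher and 315 lower. The SB431542 table listed 748 of 15169 (4.93%), 347 higher and 401 lower. Values per sample were not analysed here, so no value per culture can be given and library depth is unknown. The labels do not say whether replicates are separate cultures or animals, so p-values reflect sample-to-sample spread that could be technical.

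No compound listed more than 4 of the 10 members, and the direction of members that were not listed is unknown. Each compound listed some members, and no member was listed for all 3 compounds. Under HLM006474, Clcf1 and Ptgs2 rose (2 of 10 members, beside 1.42% of all genes tested listed higher) and Steap4 and Tgm1 fell (2 of 10, beside 4.22% listed lower). Under the RUNX1 inhibitor none rose (beside 0.605% of all genes) and Hspb1 and Tgm1 fell (2 of 10, beside 2.32%). Under SB431542, Gbp2 and Cd14 rose (2 of 10, beside 2.29%) and Hspb1 fell (1 of 10, beside 2.64%). The 10 members were named with these tables known, so their shares cannot be read against the background. Of the 30 pairs of member and compound, 9 were listed, 4 higher and 5 lower.

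**Figure D1:**
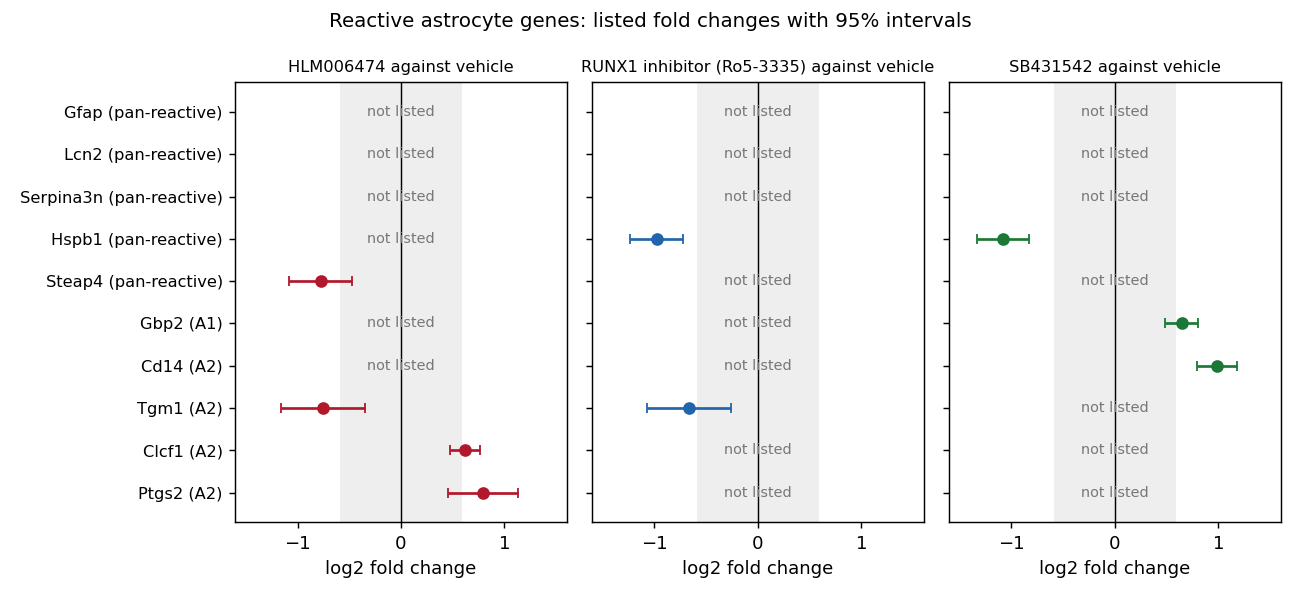
Log2 fold change of each member against vehicle (horizontal axis) in the HLM006474, the RUNX1 inhibitor and SB431542 tables, with points for the authors' estimates and bars for 95% intervals. The grey band is the range within the fold limit of each table, and only Hspb1 under the RUNX1 inhibitor and SB431542 and Cd14 under SB431542 have intervals wholly outside it.

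Among the pan-reactive genes, Gfap, Lcn2 and Serpina3n were in none of the 3 deposited tables. A change of these 3 genes that met both limits was therefore not found for any compound, and smaller changes are not tested by these tables. Their levels cannot be read either, since the tables give a mean count only for listed genes.

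Hspb1 encodes a small heat shock protein that holds unfolding proteins and binds actin and intermediate filaments. It lies on chromosome 5 at 135887919 to 135889563 of GRCm38, on the plus strand. Its mean over all libraries was 468.2 normalised counts in the authors' deposited tables. In the authors' deposited table for the RUNX1 inhibitor it stood at -0.98 ± 0.13 (SE), 0.507 times the vehicle level, with an adjusted p of 3.84e-12. In the authors' deposited table for SB431542 it stood at -1.08 ± 0.13 (SE), 0.472 times the vehicle level, with an adjusted p of 3.53e-15. By size it ranked 73 of 315 genes lower under the RUNX1 inhibitor and 142 of 401 lower under SB431542. It is the promoter of this most strongly lowered member that follows, with matches to the heat shock element core GAANNTTC in capitals. The 250 bases before the start are from RefSeq, build GRCm38.p6, and the matches begin 117 and 97 bases before the start.
Hspb1 promoter, chr5:135887669-135887918, plus strand: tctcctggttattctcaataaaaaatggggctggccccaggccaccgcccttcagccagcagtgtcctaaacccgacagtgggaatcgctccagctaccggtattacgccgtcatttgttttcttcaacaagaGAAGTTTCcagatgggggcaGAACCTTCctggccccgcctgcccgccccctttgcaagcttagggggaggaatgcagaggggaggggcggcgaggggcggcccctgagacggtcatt
Of 32851 RefSeq windows of 300 bases, 7.86% hold this core on either strand. Among the 8 members with a window, Hspb1 was the 1 that held it.

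Steap4 encodes a membrane metalloreductase of iron and copper that is induced by inflammatory cytokines. It lies on chromosome 5 at 7960457 to 7982213, on the plus strand. The authors' deposited table for HLM006474 gave -0.78 ± 0.16 (SE) at a mean count of 286.3, 0.584 times the vehicle level, with an adjusted p of 9.43e-06. The change was smaller than the median of the 640 genes lower under HLM006474, which was -0.84. Its promoter is shown for a match to the STAT motif TTCNNNGAA, in capitals, that begins 116 bases before the start (RefSeq, GRCm38.p6).
Steap4 promoter, chr5:7960222-7960471, plus strand: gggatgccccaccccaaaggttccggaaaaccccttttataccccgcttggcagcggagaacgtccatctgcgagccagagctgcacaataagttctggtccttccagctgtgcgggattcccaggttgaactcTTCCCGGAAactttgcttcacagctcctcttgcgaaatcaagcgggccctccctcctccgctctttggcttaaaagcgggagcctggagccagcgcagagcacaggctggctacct
The STAT motif was in 8.30% of all windows, and also in those of Gfap and Tgm1. Its 3 holders among the members include 2 that were lower under HLM006474 and 1 that was not listed. Any role of the STAT motif in these changes was not tested.

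The 1 member of the A1 class, Gbp2, rose under SB431542. Gbp2 is a guanylate-binding protein, an interferon-induced GTPase of cell-autonomous defence, on chromosome 3 at 142620602 to 142638008, plus strand. The authors' deposited table for SB431542 gave 0.65 ± 0.081 (SE) at a mean count of 957.3, 1.56 times the vehicle level, with an adjusted p of 6.68e-14. That is near the fold limit, 0.80 SE above it, and only 14.4% of the 347 genes higher under SB431542 had a smaller change. The promoter of this gene is shown because it holds a match to the interferon-stimulated response element, read on the opposite strand, which begins 59 bases before the start. Also in capitals are an AP-1 match (TGANTCA) at 102 and a RUNX match (TGTGGT, opposite strand) at 226 bases before the start (RefSeq, GRCm38.p6).
Gbp2 promoter, chr3:142620413-142620662, plus strand: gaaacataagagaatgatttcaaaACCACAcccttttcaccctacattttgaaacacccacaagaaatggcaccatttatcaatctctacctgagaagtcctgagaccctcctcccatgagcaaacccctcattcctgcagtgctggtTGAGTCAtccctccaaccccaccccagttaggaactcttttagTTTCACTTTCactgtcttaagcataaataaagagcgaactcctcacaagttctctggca
The response element was in 3.44% of all windows, the AP-1 motif in 7.81% and the RUNX motif in 16.8%. Ptgs2 was the other member with the RUNX motif. Neither Gbp2 nor Ptgs2 was in the RUNX1 inhibitor table, which listed only 2.93% of all genes tested. Any role of the RUNX motif was not tested. No member window held CRE (TGACGTCA), the antioxidant element core (TGACNNNGC), the SMAD palindrome (GTCTAGAC), E2F (TTTCGCGC or TTTGGCGC) letters, or the NF-kB motif. Most of these are rare: CRE was in 1.79% of all windows, the SMAD palindrome in 0.213% and the E2F letters in 0.323% and 0.514%. The NF-kB motif was in 0.155% and the antioxidant element core in 12.4%. The NF-kB motif was searched as 1 exact sequence, so variants of it were not looked for. These absences therefore do not show that the members lack such sites. The matches shown do not overlap each other, and a match is no evidence of binding.

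Within the A2 class the compounds differed in which genes they listed. Cd14, the surface co-receptor that hands lipopolysaccharide to Tlr4, rose under SB431542. The authors' deposited table gave 0.99 ± 0.099 (SE) at a mean count of 605.1, 1.99 times the vehicle level, with an adjusted p of 1.12e-21. It ranked 157 by size of the 347 genes higher under SB431542. Cd14 is abundant in microglia and macrophages, of whose 14 markers 7 were listed in the same table, beside 4.93% of all genes tested. The part of these cells in this rise was not tested.

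Tgm1 encodes a transglutaminase that cross-links proteins and is best known from skin. It lies on chromosome 14 at 55700009 to 55713926, on the minus strand. It was lower under HLM006474, at -0.76 ± 0.21 (SE) with an adjusted p of 0.00203, in the authors' deposited table. It was lower under the RUNX1 inhibitor too, at -0.66 ± 0.21 (SE) with an adjusted p of 0.01002, in the authors' deposited table. These were 0.592 and 0.632 times the vehicle level in that order, at a mean count of 223.7. Tgm1 had the largest SE of the listed members, and its 95% intervals reached -0.35 under HLM006474 and -0.26 under the RUNX1 inhibitor. The annotated antisense gene Gm49067 overlaps 12274 bases of Tgm1, and strandedness of the libraries is not given, so their reads may not be told apart. One of its 2 RefSeq promoters is shown for its STAT matches, which begin 173 and 64 bases before the start, and a response element match, opposite strand, at 242 (RefSeq, GRCm38.p6).
Tgm1 promoter, chr14:55713493-55713742, minus strand: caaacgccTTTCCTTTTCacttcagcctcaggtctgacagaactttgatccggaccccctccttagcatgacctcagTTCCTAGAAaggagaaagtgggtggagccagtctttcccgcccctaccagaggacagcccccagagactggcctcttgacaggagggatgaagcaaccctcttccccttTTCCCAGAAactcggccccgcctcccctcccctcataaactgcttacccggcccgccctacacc
The other Tgm1 window held none of the motifs searched. Both windows lie inside the gene position given above, since the RefSeq starts differ from the annotated start of that position.

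Clcf1 and Ptgs2 were the A2 genes that rose under HLM006474. Clcf1 is a cytokine of the interleukin-6 family that signals through gp130 and STAT3. The authors' deposited table gave 0.62 ± 0.074 (SE) at a mean count of 1080.4, 1.54 times the vehicle level, with an adjusted p of 2.78e-15. The call is precise but the estimate sits 0.57 SE above the fold limit, and 15.3% of the 216 genes higher under HLM006474 had a smaller change. The annotated gene AC109138.7 overlaps 9134 bases of Clcf1 on the same strand, so reads may have been shared between them. Ptgs2 encodes cyclooxygenase 2, the inducible enzyme of prostaglandin synthesis. The authors' deposited table gave 0.79 ± 0.17 (SE) at a mean count of 177.6, 1.73 times the vehicle level, with an adjusted p of 6.48e-05. It ranked 113 by size of those 216 genes.

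**Figure D2:**
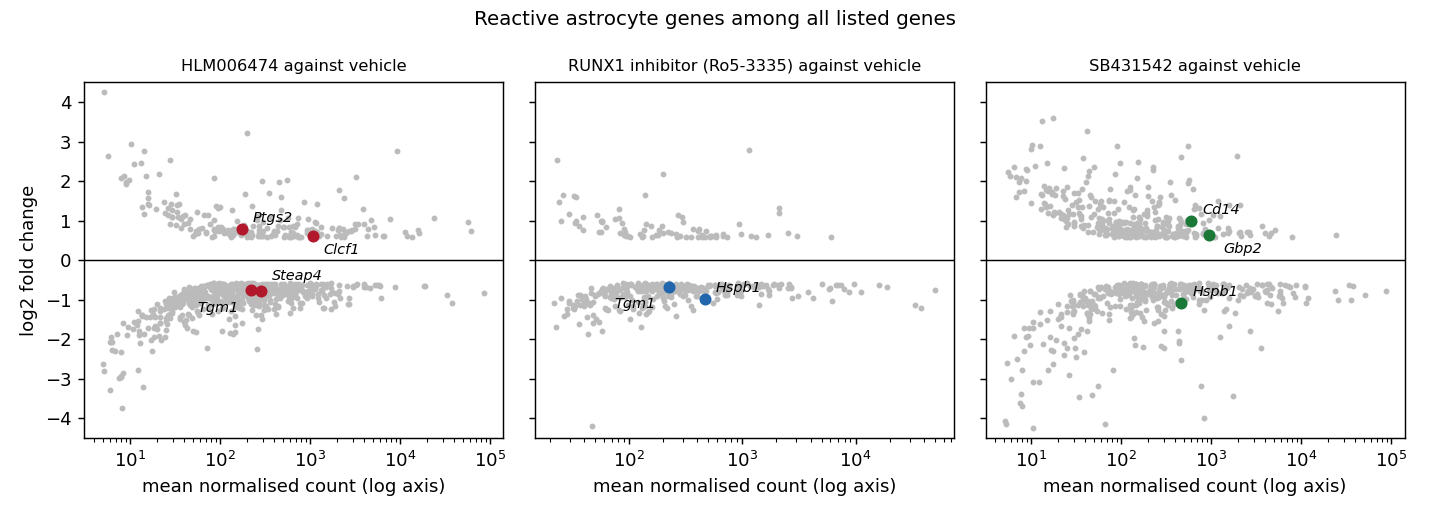
Log2 fold change (vertical axis) against mean normalised count (horizontal log axis) for all listed genes in grey and the members in colour, 1 panel each for HLM006474, the RUNX1 inhibitor and SB431542. The members lie at mean counts of 177.6 to 1080.4 and at absolute log2 changes of 0.62 to 1.08, and 11 listed points with changes beyond 4.5 are outside the panels.

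The sizes of the changes were modest within each table. Of the 9 listed changes, 3 were larger than the median change of the same direction in their table, namely both changes of Hspb1 and that of Cd14. The 95% interval lay wholly past the fold limit for the same 3 changes, and reached inside it for the other 6. The authors' test separated these 6 changes from 0, but whether they exceed about 1.5-fold cannot be told from these errors.

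Levels in each group can be bounded from the deposited values. The mean count is an average over the 13 libraries, so with the listed fold changes, and with each unlisted compound held within its table's limit, a range follows for each group mean. Hspb1 was at 270 to 345 normalised counts with the RUNX1 inhibitor and 251 to 321 with SB431542, against 533 to 681 with vehicle. Tgm1 was at 142 to 178 with HLM006474 and 151 to 190 with the RUNX1 inhibitor, against 239 to 300.5 with vehicle. Cd14 was at 825 to 1118 with SB431542, against 416 to 563 with vehicle. Gbp2 was at 1102 to 1532 with SB431542, against 705 to 980 with vehicle. For Clcf1 the range was 1230 to 1712 with HLM006474, against 798 to 1112 with vehicle. For Ptgs2 it was 220 to 303 with HLM006474, against 127 to 175 with vehicle, and for Steap4 it was 148 to 222 with HLM006474, against 253 to 381 with vehicle. These ranges rest on the group averages of the fit and carry no replicate error. Within 1 gene, both groups move along their ranges together, so the ratio between them stays as listed.

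**Figure D3:**
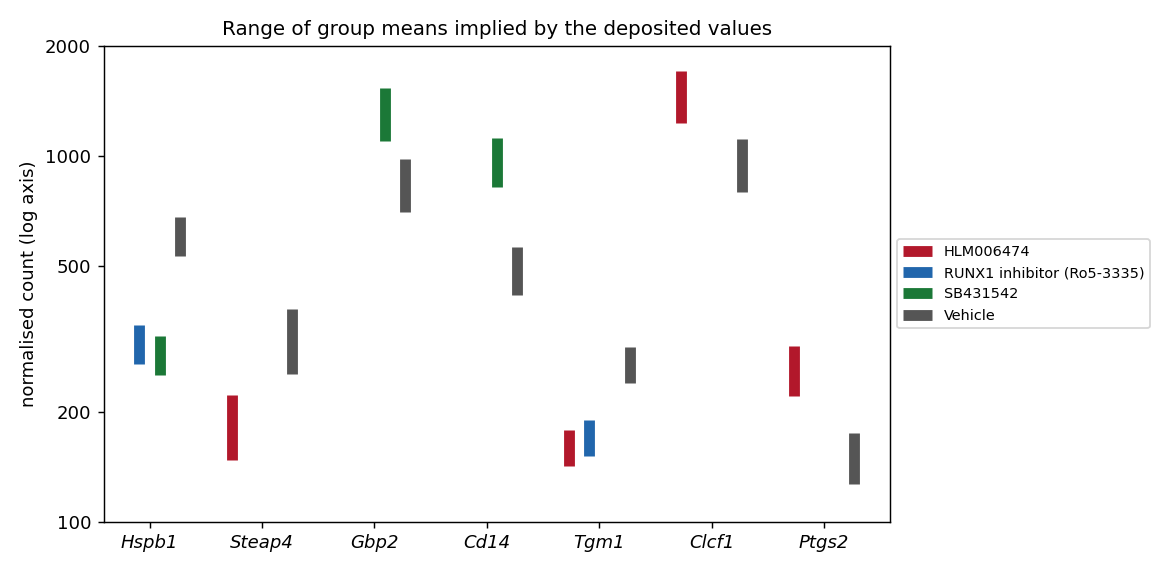
Range of the mean normalised count (vertical log axis) implied for each group by the deposited mean count and fold changes, for the 7 listed members, with HLM006474, the RUNX1 inhibitor, SB431542 and vehicle from left to right. Only groups with a listed change are drawn, so the gap to vehicle follows from the listing, and the ranges run up to 1230 to 1712 for Clcf1 with HLM006474 and down to 127 to 175 for Ptgs2 with vehicle.

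Per kilobase of annotated exon, the mean level over all libraries was 454 normalised counts for Hspb1, 380 for Gbp2, 349 for Cd14, 284 for Clcf1, 90.7 for Steap4, 70.7 for Tgm1 and 38.8 for Ptgs2. These means pool groups whose levels differ, and the order of the first 3 genes depends on the group. With SB431542 the implied level of Hspb1 was 244 to 312 per kilobase, below the 438 to 609 of Gbp2 and the 476 to 646 of Cd14. With vehicle it was 517 to 660.1 for Hspb1, above the 280.0 to 389 of Gbp2 and the 240 to 325 of Cd14. The ranges of Gbp2 and Cd14 overlapped in both groups. No spread between libraries is available for these levels, so no order among the genes was tested.

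Members listed for 2 compounds allow those compounds to be compared. For Hspb1 the difference between the RUNX1 inhibitor and SB431542 was 0.10 ± 0.18 (SE) on the log2 scale, with a 95% interval of -0.25 to 0.46. It did not pass the z test on the difference (adjusted p = 0.949, over 93 genes in both tables, of which 17.2% differed). For Tgm1 the difference of HLM006474 minus the RUNX1 inhibitor was -0.09 ± 0.29 (SE), with a 95% interval of -0.67 to 0.48 (adjusted p = 0.998 by the same z test, over 211 genes, of which 9.48% differed). Neither interval shows that the compounds act alike, since each leaves room for a sizeable gap.

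Members listed for 1 of 2 compounds can be compared with the largest change an unlisted gene could have had, taken as the larger of the fold limit and the change that would have passed the adjusted p at the gene's SE. Cd14 under SB431542 exceeded that limit by 0.41 ± 0.14 (SE), both for HLM006474 (adjusted p = 0.0189, 1-sided z test over 1281 genes, of which 11.2% passed) and for the RUNX1 inhibitor (adjusted p = 0.0144, the same z test over 877 genes, of which 15.1% passed). Hspb1 under SB431542 exceeded the limit of HLM006474 by 0.50 ± 0.18 (SE, adjusted p = 0.0293 by this z test). Hspb1 under the RUNX1 inhibitor exceeded it by 0.40 ± 0.18 (SE) and did not pass (adjusted p = 0.150 by this z test over 756 genes, of which 5.29% passed). When the shared vehicle samples were taken out of the error, it passed (adjusted p = 0.0204 by the z test). Steap4, Gbp2, Tgm1, Clcf1 and Ptgs2 did not pass in any pair, with adjusted p of 0.501 to 0.512 by the z test. So for these 5 genes, presence in 1 table and absence from another does not show that the compounds differ. Of the 14 comparisons of this kind, 3 passed, and with the limit raised 1.5 times none did. Genes enter this comparison because they were listed, which favours changes that were overestimated.

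The wider lists of the same classes hold 37 genes, 13 pan-reactive, 12 A1 and 12 A2. Of the 37, HLM006474 listed 4 (10.8%), 2 higher and 2 lower, beside 5.64% of all genes. The RUNX1 inhibitor listed 2 (5.41%), both lower, beside 2.93%. SB431542 listed 6 (16.2%), 3 higher and 3 lower, beside 4.93%. The 37 include the 10 members, and all gene lists described here were chosen with earlier results of these data known. Like the shares of the members, those of the lists cannot be read against the background. In all 10 of the 37 were listed for some compound, and 7 of those 10 are the members described above. The other 3 were all listed for SB431542. The authors' deposited table gave the metalloproteinase inhibitor Timp1 at -0.98 ± 0.10 (SE), the elastic fibre gene Fbln5 at -0.93 ± 0.067 (SE) and the chemokine Cxcl10 at 0.80 ± 0.20 (SE). Under SB431542 the pan-reactive list thus had 2 genes lower and 1 higher, the A1 list 1 lower and 1 higher, and the A2 list 1 higher.

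Of the 10 guanylate-binding protein genes other than Gbp2, 3 rose under SB431542, beside 2.29% of all genes tested. Of all 11 genes of this family, HLM006474 listed 1, lower, SB431542 listed 4, all higher, and none was listed for the RUNX1 inhibitor. The shares of all genes tested were 5.64%, 4.93% and 2.93% in that order. Gbp5 was lower under HLM006474, at -0.66 ± 0.20 (SE) in the authors' deposited table. In the authors' deposited table for SB431542, Gbp5 stood at 1.34 ± 0.18 (SE), Gbp6 at 0.96 ± 0.15 and Gbp7 at 0.77 ± 0.14. The difference of HLM006474 minus SB431542 for Gbp5 was -2.00 ± 0.27 (SE, adjusted p = 2.08e-12, z test over 161 genes, of which 32.9% differed). A gene listed in opposite directions for 2 compounds is all but bound to pass this test, so passing adds little to the listing. The genes of this family are close copies, and how reads that match several of them were counted is not given.

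Beside the counts that follow, 5.64% of all genes tested were listed for HLM006474, 2.93% for the RUNX1 inhibitor and 4.93% for SB431542. Of 12 genes of the NF-kB and Tlr4 pathway, SB431542 listed 2, both higher. They were Cd14 and its receptor partner Tlr4, at 0.64 ± 0.12 (SE) in the authors' deposited table. For the RUNX1 inhibitor 1 was listed, the NF-kB inhibitor Tnfaip3, at -0.78 ± 0.23 (SE) in the authors' deposited table, and HLM006474 listed none. Of 9 genes for the cytokines and complement factors that induce the A1 state, with their receptors, HLM006474 listed 1, SB431542 listed 2 and the RUNX1 inhibitor listed none. The cytokine gene Tnf was lower under HLM006474, at -1.10 ± 0.35 (SE) in the authors' deposited table. Under SB431542 it stood at 1.20 ± 0.29 (SE), and the complement gene C1qa at -0.66 ± 0.052 (SE), in the authors' deposited table. The Tnf difference of HLM006474 minus SB431542 was -2.30 ± 0.46 (SE, adjusted p = 3.83e-06, z test over 161 genes), at a mean count of only 34.5. Tnf too was listed in opposite directions, so passing this test adds little to the listing.

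The shares of all genes tested that were listed, 5.64% for HLM006474, 2.93% for the RUNX1 inhibitor and 4.93% for SB431542, apply here too. Of 15 genes of the gp130 and STAT3 pathway, HLM006474 listed Clcf1 alone and the RUNX1 inhibitor listed none. Stat3, Socs3 and the receptor chain Il6st were not in the tables. Of 10 prostaglandin synthesis genes, HLM006474 listed 1 higher, Ptgs2, and 1 lower, the prostacyclin synthase Ptgis at -0.85 ± 0.27 (SE) in the authors' deposited table. SB431542 listed 3, with the constitutive cyclooxygenase Ptgs1 at -0.68 ± 0.12 (SE), Ptgis at -0.85 ± 0.27 and the prostaglandin D synthase Hpgds at 1.01 ± 0.20 in the authors' deposited table. None of these 10 was listed for the RUNX1 inhibitor. Of 14 small heat shock protein genes and heat shock factor targets, the RUNX1 inhibitor listed Hspb1 and Hspb6, at -0.69 ± 0.11 (SE) in the authors' deposited table, and SB431542 listed Hspb1 alone. The inducible chaperones Hspa1a and Hspa1b were not in the tables. Of 8 transglutaminase genes, HLM006474 listed Tgm1 and the tissue transglutaminase Tgm2, at -0.76 ± 0.11 (SE) in the authors' deposited table. SB431542 lowered Tgm2, at -0.63 ± 0.11 (SE), in the authors' deposited table, and the RUNX1 inhibitor listed Tgm1 alone.

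**Figure D4:**
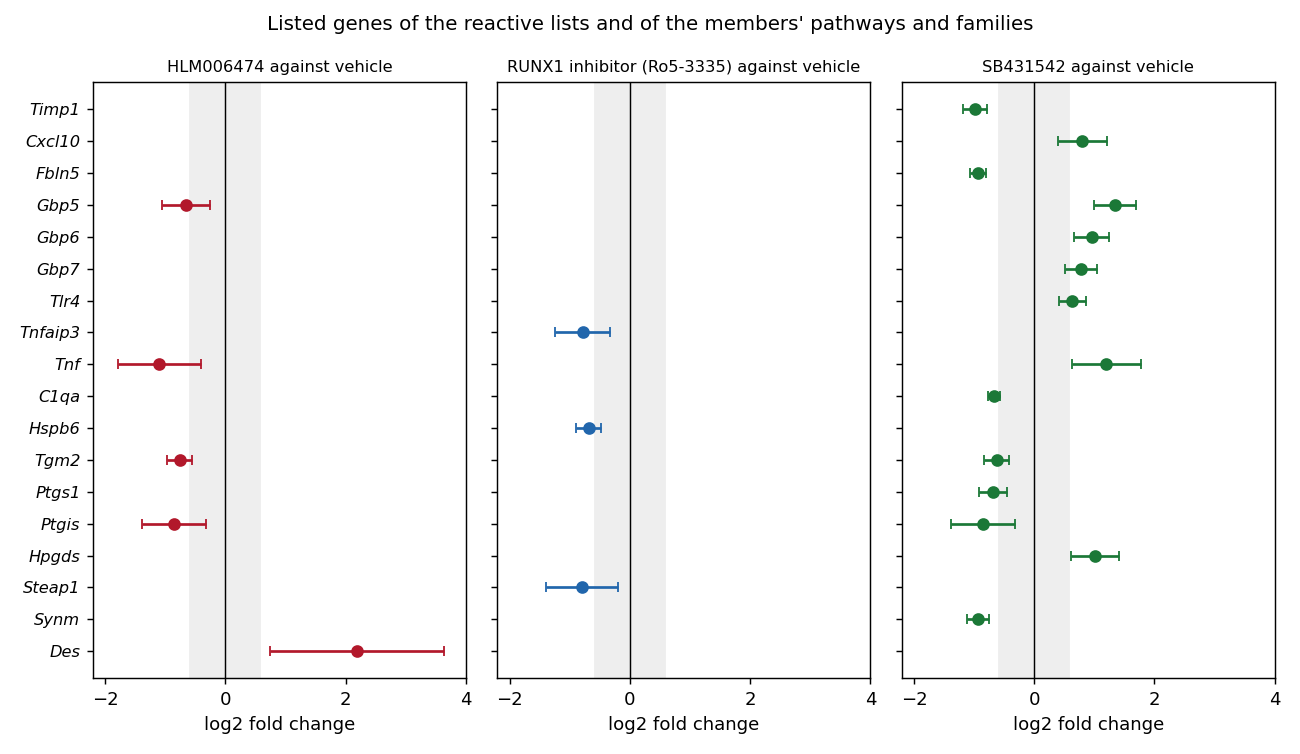
Log2 fold change against vehicle (horizontal axis) with 95% intervals for listed genes of the reactive lists and of the members' pathways and families that are not members, in the HLM006474, the RUNX1 inhibitor and SB431542 tables. A gap means that the gene was not listed for that compound, and Gbp5 and Tnf are the genes drawn on opposite sides of the grey fold limit, at -0.66 and -1.10 under HLM006474 and at 1.34 and 1.20 under SB431542.

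Genes used as markers of other cells were also listed. Which cells of the cultures expressed them was not tested. For comparison, 5.64% of all genes tested were listed for HLM006474, 2.93% for the RUNX1 inhibitor and 4.93% for SB431542. Of 13 astrocyte markers, HLM006474 and the RUNX1 inhibitor each listed 1, Fabp7, and SB431542 listed 1, Kcnj10, all lower, with mean counts of 18965 for Fabp7 and 23893 for Kcnj10 in the authors' deposited tables. Of 14 microglia and macrophage markers, SB431542 listed 7, 5 lower and 2 higher, HLM006474 listed 4, 3 lower and 1 higher, and the RUNX1 inhibitor listed none. In the authors' deposited table for SB431542 the homeostatic markers Tmem119 and Cx3cr1 stood at -4.00 ± 0.11 (SE) and -2.21 ± 0.081, while Cd68 stood at 0.72 ± 0.075. Of 12 oligodendrocyte lineage markers, HLM006474 listed 8, all lower, SB431542 listed 1, lower, and the RUNX1 inhibitor listed none. Of 10 fibroblast and pericyte markers, HLM006474 listed 4, 1 higher and 3 lower, the RUNX1 inhibitor listed 2, both lower, and SB431542 listed 4, all lower. Of 6 endothelial markers, the RUNX1 inhibitor and SB431542 each listed Flt1, lower. Of 8 neuron markers, each compound listed 1. The part of these cells in the changes of Gbp2, Cd14, Tnf, Hspb1, Steap4, Tgm1, Clcf1 and Ptgs2 was not tested. Where cultures are mixed, fewer cells of a type and less RNA per cell cannot be told apart.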

How the data were processed

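RNA was measured by sequencing in 13 samples, 3 each for HLM006474, the RUNX1 inhibitor and SB431542 and 4 for vehicle, grouped by their titles. The submitters' processing notes name CASAVA 1.8, STAR 2.7, DESeq2 1.30.1 and the GRCm38 build. The counting step, its annotation and library strandedness were not stated in the sources used here. The authors' deposited tables give a mean normalised count (a signal averaged over all libraries), a log2 fold change with its SE, a Wald score and p-values with adjusted p-values, per the file headers. A gene in several tables has the same mean count in each, so all groups were in 1 fit.

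Members were matched by gene name. The members and all gene lists were chosen with earlier results of these data known. One gene of the lists was taken out of its list and is not reported here. The number of genes tested was found from the ratio of p to adjusted p, which made 80.5% to 83.6% of checked ranks whole within 0.02. Promoter windows run from 250 bases before to 50 after RefSeq starts, matched by symbol for 8 of the 10 members. Exon lengths and gene positions are from GENCODE M21. Its gene starts differ from the RefSeq starts for Steap4, Gbp2 and Tgm1. Distances of matches are counted from the RefSeq start, so parts of these promoters lie inside the gene positions given.

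Differences between compounds used a z test on the log2 fold changes over all genes in both tables, with SE as the root of summed squares and Benjamini-Hochberg adjustment. That SE counts the vehicle samples shared by both tables as if they were separate. For genes in 1 of 2 tables, the unlisted change was taken to lie within the larger of the fold limit and the smallest absolute Wald score times the gene's SE. The code for genes in both tables was checked on simulated data with independent errors, unlike the real tables, which share vehicle samples. The code for genes in 1 of 2 tables was not checked in this way. For each member listed in 2 tables, the 3 genes of the same tables and directions with the smallest distance between fold changes are named. For each listed member the 2 listed genes nearest in mean count are also given. From the pathway lists, up to 4 genes per table were named. Python 3.11.15, pandas 2.3.3 and scipy 1.17.1 were used.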

Additional observations from a re-analysis of the deposited data

How the results depend on the processing

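Of the alternatives tried, each changed 1 choice. With a fold of at least 2, the members higher under HLM006474 numbered 0, those lower 0, those lower under the RUNX1 inhibitor 0 and those higher under SB431542 0, against 2 each at the authors' limits, while Hspb1 under SB431542 stayed listed. With a Bonferroni limit, 1 member was higher (Clcf1) and 1 lower (Steap4) under HLM006474 and 1 lower (Hspb1) under the RUNX1 inhibitor. With an adjusted p under 0.01, 1 member (Hspb1) was lower under the RUNX1 inhibitor. A mean count of at least 100 removed no member. The shares of all genes passing these stricter limits were not computed. For each compound and direction with listed members, the median change of all listed genes was also under 2-fold (absolute log2 0.77 to 0.93). Neither difference between compounds for members in both tables was called under any alternative. With the bound raised 1.5 times, 0 of the 3 comparisons past the bound passed. Taking the shared vehicle samples out of the SE added Hspb1 for the RUNX1 inhibitor against HLM006474. No listed change could reverse direction under these alternatives. They only tightened limits, rescaled the SE, adjusted over all pairs together or raised the bound. The excess over the bound fell below 0 for Clcf1, Gbp2, Steap4, Ptgs2 and Tgm1 when the bound was raised 1.5 times. These genes had not passed before, and Cd14 and Hspb1 kept an excess above 0 without passing. No paired analysis was possible because the tables used carry fold changes and no sample columns, and for that reason leaving out each replicate was not run either. What depth limits cannot be stated, since library totals are unknown.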

Other observations

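Further genes that share a family with the pan-reactive members were listed. Over all genes tested the listed share was 5.64% for HLM006474, 2.93% for the RUNX1 inhibitor and 4.93% for SB431542. Of 5 intermediate filament genes, which include Gfap, HLM006474 listed Des, at 2.19 ± 0.74 (SE) with a mean count of 21.04 in the authors' deposited table. SB431542 listed Synm, which encodes synemin, a partner of other intermediate filaments, at -0.93 ± 0.090 (SE) in the authors' deposited table. Of 6 genes of STEAP reductases and siderophore-linked iron, which include Steap4 and Lcn2, the RUNX1 inhibitor listed Steap1, at -0.80 ± 0.31 (SE) in the authors' deposited table, and HLM006474 listed Steap4 alone.

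Genes with fold changes most like those of Hspb1, among the 26 others listed lower for the RUNX1 inhibitor and SB431542 and not for HLM006474, were Mettl22, Chsy3 and Flt1. Their distances from Hspb1 were 0.11, 0.12 and 0.17 on the log2 scale, over 2 comparisons that share the vehicle samples. The SEs of these 3 genes, 0.30 to 0.41, were larger than their distances, so their places are not resolved. For Tgm1 the pool was 136 genes listed lower for HLM006474 and the RUNX1 inhibitor and not for SB431542. The nearest were Tyms, Btbd17 and Cdc45, at distances of 0.010, 0.017 and 0.020. Tgm1 itself had an SE of 0.21 for each compound, far above these distances, so which genes are nearest is not resolved.

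Each of the 9 listed changes was set beside those of the 2 listed genes nearest in mean count. The SE was larger than both neighbours' in 6 cases, smaller than both in 2 and between them in 1. Under HLM006474, Tgm1 had an SE of 0.21 in the authors' deposited table, beside 0.17 for Tchh and 0.15 for Pirb. Under the RUNX1 inhibitor, Tgm1 had an SE of 0.21 in the authors' deposited table, beside 0.14 for Mcm8 and 0.13 for Pipox. Hspb1 under the RUNX1 inhibitor had 0.13, beside 0.093 for Melk and 0.099 for Rsph4a, in the authors' deposited table. Under SB431542, Hspb1 had 0.13, beside 0.32 for Col7a1 and 0.20 for Ccl9 in the authors' deposited table. Steap4 under HLM006474 had 0.16, beside 0.17 for Hps4 and 0.23 for Cdkn1c. Ptgs2 under HLM006474 had 0.17, beside 0.14 for E2f2 and 0.18 for Gins1. For Clcf1 under HLM006474 it was 0.074, beside 0.069 for Dhrs7 and 0.068 for Fam111a. Gbp2 under SB431542 had 0.081, beside 0.066 for Megf11 and 0.075 for Slc15a2. Cd14 under SB431542 had 0.099, beside 0.095 for Wscd2 and 0.092 for Aff3. All are from the authors' deposited tables.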
